A study of Mus musculus with 6 samples.

Results

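The Serpina3 genes of the mouse are a cluster of paralogous serine protease inhibitor genes on chromosome 12. The 7 genes described here, Serpina3c, Serpina3f, Serpina3g, Serpina3h, Serpina3i, Serpina3m and Serpina3n, are 7 of the 55011 gene symbols in the deposited count table and were taken by symbol. They were chosen by symbol with their measured irisin and PBS levels already known, so their values, and the counts of members called in a fit over all genes, are given as a description and support nothing. Serpina3h, with 27 counts over the irisin libraries and 0 over the PBS libraries, was the member of lowest count. Serpina3d-ps, a pseudogene of the cluster with 8 counts in irisin and 5 in PBS, was the highest of the 7 Serpina3 symbols that are not among them. Serpina3a, Serpina3b, Serpina3e-ps, Serpina3j, Serpina3k and Serpina3l-ps had between 0 and 3 counts over all libraries.

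RNA-seq counts were available for 6 libraries, all from mesenchymal stromal cells of mouse visceral fat kept in culture (VAT in the labels, eWAT in the design text), connective-tissue cells among which are adipocyte precursors. The irisin group (n = 3) had received irisin/HSP90α at 10 nM for 3 days. The PBS group (n = 3) had received phosphate-buffered saline. All libraries carry the genotype label Il33-EGFP-, which names cells without EGFP from the Il33 reporter. Irisin is a hormone cleaved from the muscle membrane protein Fndc5, and the chaperone HSP90α is also found outside cells. The labels do not say if HSP90α was in the PBS wells, nor do they give the sex, age and strain of the mice, nor whether replicates were separate animals or cultures, so the spread between replicates may be technical. Total counts lay between 5271309 and 6745799 per library. Irisin and PBS separated along the first principal component (47.5% of variance), and the next component (24.1%) set irisin replicate 1 and PBS replicate 3 apart from the other libraries. All 11 stromal markers were detected, with sums of 51514 to 56370 CPM (counts scaled to the size of each library) in irisin and 38289 to 45818 CPM in PBS. Collagens (Col1a1, Col1a2, Col3a1) and Dcn made up most of that sum. Of the 11, 2 rose and 4 fell, beside 4.20% of all genes tested called higher and 3.22% called lower. Cd34 averaged 38.9 CPM in irisin and 103 CPM in PBS. The liver is the main source of several Serpina3 proteins in blood, and of 6 hepatocyte markers Ahsg alone was above the filter on low counts, with 169 counts in irisin and 233 in PBS. The other 5 (Alb, Ttr, Apoa1, Tat and Cps1) had 0 to 3 counts over a group, and the hepatocyte sum was 8.001 to 11.4 CPM in irisin and 8.65 to 16.1 CPM in PBS.

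Serpins inhibit proteases by a trap. A protease cleaves an exposed stretch near the end of the serpin, the reactive centre loop, and is then held covalently as the serpin changes shape. In humans the family is represented by SERPINA3 (antichymotrypsin), a secreted acute-phase protein that inhibits cathepsin G and mast cell chymase. In the mouse, duplication gave a cluster of paralogues with diverged loops. Serpina3n is secreted and inhibits leukocyte proteases such as granzyme B, and Serpina3g (Spi2A) acts inside cells on lysosomal cathepsins. Cytokines of the interleukin-6 family, NF-κB, interferon-γ and glucocorticoids are known inducers of members of this family.

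The members lie between bases 104146382 and 104414329 of chromosome 12 (mm10, positions from GENCODE release M21), a span of 267.9 kb. From the centromere side their order is Serpina3c (104146382 to 104153870, minus strand), then, on the plus strand, Serpina3f (104214544 to 104221129), Serpina3g (104236245 to 104241939), Serpina3h (104247905 to 104253669), Serpina3i (104263122 to 104269372), Serpina3m (104338486 to 104394257) and Serpina3n (104406729 to 104414329). Of the members, 6 are annotated as protein-coding, and Serpina3h as a transcribed unprocessed pseudogene. Serpina3m shares 60 exon bases with Serpina3k on the same strand, and the exons of the other 6 members overlap no other annotated gene. The deposited values hold 1 number per gene and library, with no resolution within the gene.

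The bases that code for the reactive centre loop show how far the paralogues have diverged where protease choice is set. They are printed 5′ to 3′ from the GENCODE M21 transcripts, from the conserved hinge to the conserved segment after the cleaved bond (codons 367 to 396 of the annotated Serpina3n coding sequence), and capitals mark bases that do not match Serpina3n, position by position where the lengths are equal and after alignment for Serpina3f and Serpina3c, inserted bases included.
Serpina3n: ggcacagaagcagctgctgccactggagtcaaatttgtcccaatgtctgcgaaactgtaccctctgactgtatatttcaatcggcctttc
Serpina3i: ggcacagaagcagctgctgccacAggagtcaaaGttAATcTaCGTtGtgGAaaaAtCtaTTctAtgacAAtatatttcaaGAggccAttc
Serpina3g: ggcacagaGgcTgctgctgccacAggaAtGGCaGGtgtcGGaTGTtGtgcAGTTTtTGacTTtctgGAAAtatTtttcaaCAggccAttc
Serpina3f: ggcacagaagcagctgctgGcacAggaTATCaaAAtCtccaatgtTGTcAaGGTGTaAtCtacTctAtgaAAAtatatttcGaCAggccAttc
Serpina3m: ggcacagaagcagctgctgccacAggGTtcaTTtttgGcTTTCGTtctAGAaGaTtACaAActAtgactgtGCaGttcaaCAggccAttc
Serpina3c: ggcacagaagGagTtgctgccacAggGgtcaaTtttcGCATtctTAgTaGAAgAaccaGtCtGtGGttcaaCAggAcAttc
Among aligned loop-coding bases, with those opposite a gap left out, identity to Serpina3n was 78.2% in Serpina3f, 75.6% in Serpina3i, 71.6% in Serpina3c, 70.5% in Serpina3g and 68.9% in Serpina3m. Over the rest of the coding sequence, counted in the same way, it was 85.8% to 88.3%. The highest was that of Serpina3g, whose annotated sequence codes for only 248 residues. It aligned over 556 bases, against 1134 to 1164 in the others. Counted by the capitals printed above, loop identity was 75.6% in Serpina3i, 69.1% in Serpina3c, 68.9% in Serpina3m, 68.8% in Serpina3f and 64.4% in Serpina3g. The order of the genes thus depends on how gaps are placed and counted. In every one of these 5 genes, by either count, the loop was less like Serpina3n than the rest of its coding sequence was. Serpina3h has no annotated coding sequence and is not shown.

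Serpina3f, Serpina3g, Serpina3h and Serpina3i, which stand next to each other within 54.8 kb, were the members with the largest fold differences between irisin and PBS. In absolute level the largest difference was that of Serpina3n (128 CPM). Serpina3i had 19.7, 24.0 and 22.6 CPM in irisin replicates 1, 2 and 3, against 2.03, 2.54 and 2.58 CPM in PBS replicates 1, 2 and 3. All irisin libraries lay far above all PBS libraries, and the fitted difference was 9.25-fold (log2 fold change 3.21 ± 0.21, the error being the standard error). Serpina3f had 37.6, 39.6 and 41.5 CPM in irisin, against 5.22, 5.07 and 4.97 CPM in PBS. Replicates of this gene were close together in both groups, the groups did not overlap, and the difference was 7.74-fold (log2 fold change 2.95 ± 0.15). Serpina3g, the inhibitor of lysosomal cathepsins, had 65.3, 70.7 and 69.0 CPM in irisin, against 13.8, 10.1 and 12.5 CPM in PBS. The lowest irisin library was well above the highest PBS library (5.61-fold, log2 fold change 2.49 ± 0.13).

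Serpina3h, the annotated pseudogene, had 8, 9 and 10 counts in irisin replicates 1, 2 and 3 and 0 counts in each PBS library. It did not pass the filter on low counts and so entered no fit. Against a floor of 3 counts over the PBS group, its level was at least 9.43-fold higher in irisin (1.52 CPM over the group, against a PBS floor of 0.161 CPM). This floor covers counting error only. Of all the k-mers of 36 bases in its transcripts, 34.3% also occur in transcripts of another gene, most often of Serpina3i (22.5%), so part of its counts could belong to that neighbour.

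Serpina3m and Serpina3n were higher in irisin by smaller factors. Serpina3m had 22.9, 25.1 and 22.5 CPM in irisin, against 9.29, 7.61 and 10.9 CPM in PBS. The groups did not overlap, and the difference was 2.54-fold (log2 fold change 1.35 ± 0.17). Serpina3n, the secreted inhibitor of leukocyte proteases and the most abundant member, had 329, 324 and 301 CPM in irisin, against 199.6, 176 and 195 CPM in PBS. Its groups did not overlap either, and the difference was 1.67-fold (log2 fold change 0.74 ± 0.09). In bulk RNA, more cells that express a gene and more RNA per cell cannot be told apart.

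Serpina3c, known in earlier work as kallikrein-binding protein, was the member that was not higher in irisin. It had 18.6, 15.7 and 17.0 CPM in irisin, against 22.2, 18.5 and 22.6 CPM in PBS. Irisin replicate 1 lay just above PBS replicate 2, so the groups overlapped (log2 fold change -0.30 ± 0.15).

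**Figure D1:**
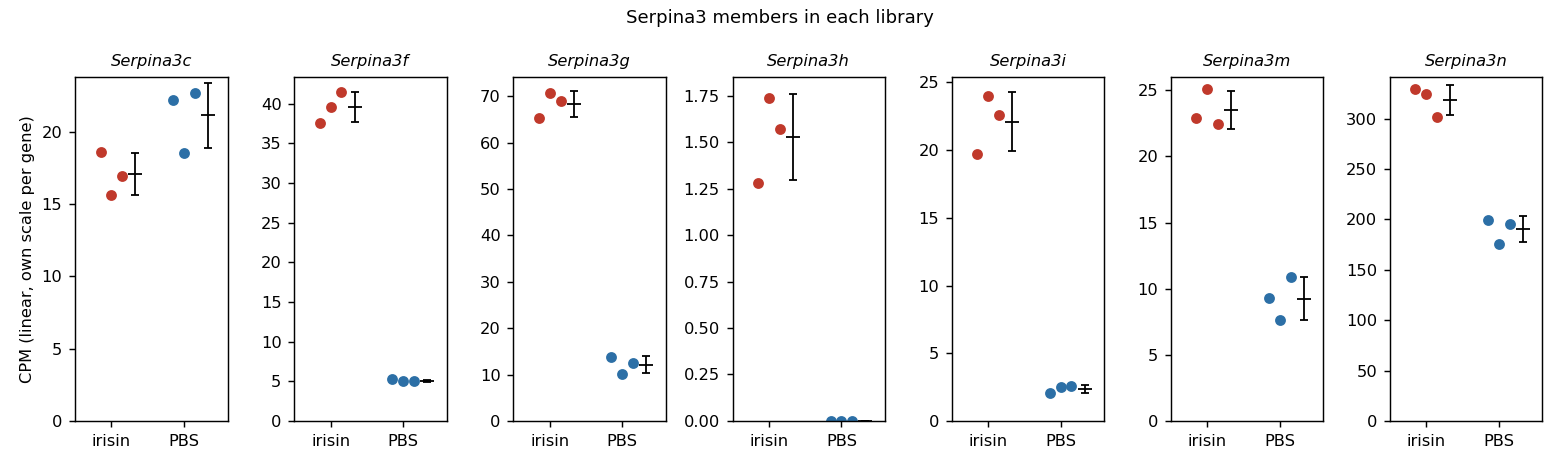
Levels of the 7 members in CPM on a linear axis starting at 0 with its own scale for each gene; each point is 1 library, and the black mark with its bar is the mean ± SD of 3 libraries. The 3 irisin points lie above the 3 PBS points in every panel except that of Serpina3c, where they overlap, and the PBS points of Serpina3h are at 0.

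Of the 7 members, 6 passed the filter on low counts, and 5 of these 6 passed the threshold of edgeR's quasi-likelihood test over all genes (adjusted p under 0.05), all of them higher in irisin; among all 12296 genes tested, 4.20% were called higher and 7.42% in either direction. At least 5-fold higher were 3 of the 6 members and 0.333% of all genes tested, and at least 2-fold higher were 4 of the 6 and 2.33% of all. The member not called was Serpina3c. The median log2 fold change of the 6 members was 1.92, beside -0.01 over all genes tested. In 5 of the 6 members every irisin library lay above every PBS library, as was the case for 12.1% of all genes tested. Nothing is read from these shares, because the genes were listed with this comparison in view. In the order of log2 fold changes of the 12296 genes, Serpina3i stood at place 18, Serpina3f at 23, Serpina3g at 34, Serpina3m at 150, Serpina3n at 492 and Serpina3c at 10635. With irisin replicate 1 and PBS replicate 3 both left out, the log2 fold changes were 3.35 for Serpina3i, 2.98 for Serpina3f, 2.54 for Serpina3g, 1.49 for Serpina3m, 0.74 for Serpina3n and -0.32 for Serpina3c.

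**Figure D2:**
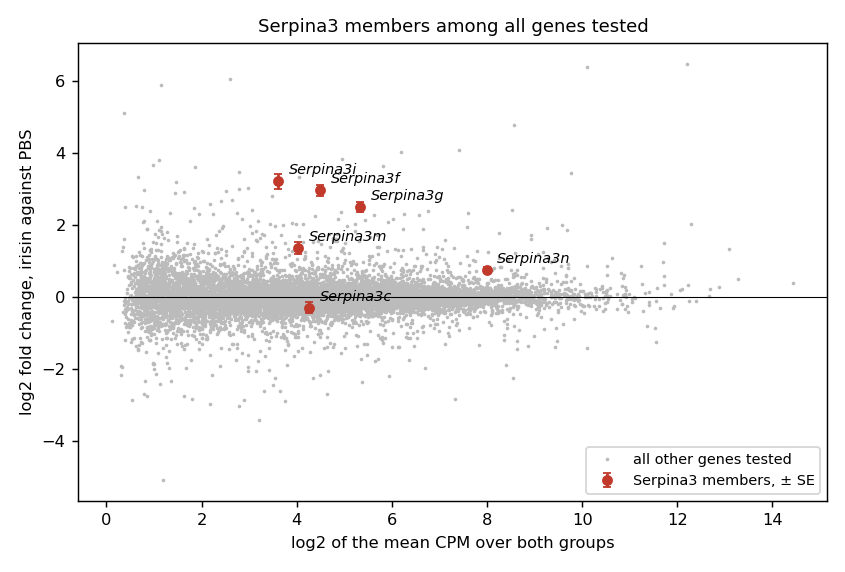
Log2 fold change of irisin against PBS on the vertical axis over the log2 of the mean CPM on the horizontal axis for 12296 genes tested; grey points are genes and red points with bars are the 6 members tested with their standard errors. Serpina3i, Serpina3f and Serpina3g lie near the upper edge of the grey points, Serpina3n is further right at 0.74, and Serpina3c lies just below 0.

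Levels of different genes were compared per kilobase of annotated exon. In irisin the order of the mean levels was Serpina3n (154 ± 7.24 CPM per kb, SD, n = 3), Serpina3g (32.5 ± 1.32), Serpina3f (17.3 ± 0.846), Serpina3m (13.7 ± 0.831), Serpina3i (9.93 ± 0.985), Serpina3c (7.71 ± 0.658) and Serpina3h (1.07 ± 0.162). The library values of no neighbouring pair in this order overlapped. In PBS the order was Serpina3n (92.1 ± 6.20 CPM per kb), Serpina3c (9.55 ± 1.02), Serpina3g (5.77 ± 0.879), Serpina3m (5.38 ± 0.947), Serpina3f (2.22 ± 0.0558), Serpina3i (1.07 ± 0.137) and Serpina3h (0). There Serpina3g, at 4.82 to 6.55 CPM per kb, and Serpina3m, at 4.42 to 6.32, overlapped, and no other neighbouring pair did. Serpina3c was thus second in PBS and sixth in irisin.

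**Figure D3:**
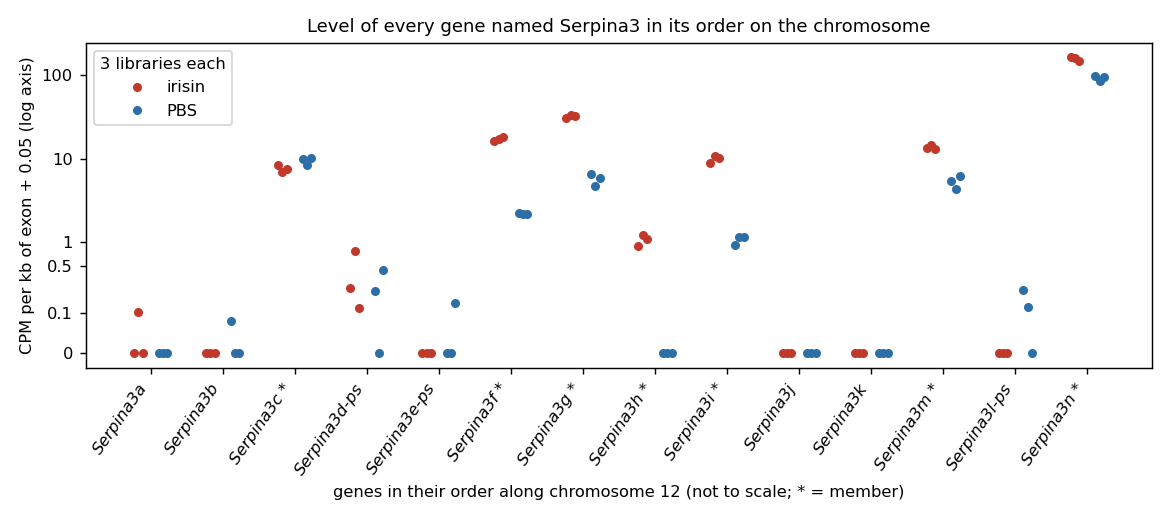
Level of all 14 genes named Serpina3, in CPM per kb of exon plus 0.05 on a log axis, in their order along chromosome 12 (spacing not to scale); each point is 1 of 3 irisin or 3 PBS libraries, and members carry a star. The neighbours Serpina3f, Serpina3g, Serpina3h and Serpina3i show the widest gaps between the groups, and Serpina3j and Serpina3k between the members are at 0 in all libraries.

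As a share of the summed level per kb of the 7 members, Serpina3n made up 65.2 ± 1.58% in irisin and 79.4 ± 0.831% in PBS (SD, n = 3 each). Serpina3g took 13.7 ± 0.668% in irisin and 4.95 ± 0.416% in PBS. Serpina3f took 7.32 ± 0.532% in irisin and 1.92 ± 0.149% in PBS. The share of Serpina3c was 3.26 ± 0.305% in irisin and 8.21 ± 0.298% in PBS. Although its fold change was the smallest among the members called, Serpina3n gave 50.9% of the summed increase per kb over the members that were higher. With the counts of all 7 members added up as 1 feature, so that reads divided among the members stay in the total, the sum was 495, 501 and 475 CPM in irisin replicates 1, 2 and 3 and 252, 219 and 249 CPM in PBS replicates 1, 2 and 3. The groups did not overlap, and the sum was 2.04-fold higher in irisin (log2 fold change 1.03 ± 0.08).

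**Figure D4:**
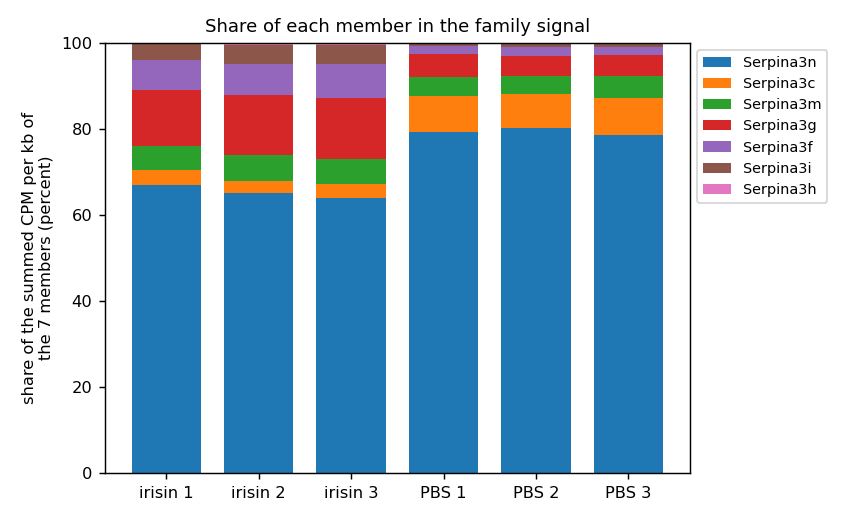
Share of each member in the summed CPM per kb of the 7 members, in percent from 0 to 100, for each of the 3 irisin and 3 PBS libraries; colours are genes. The share of Serpina3n is near 65.2% in irisin and 79.4% in PBS, and the bands of Serpina3g, Serpina3f and Serpina3i are wider in irisin.

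The members that moved most also resembled each other most in sequence, with 1 exception. Between the longest transcripts of Serpina3f, Serpina3g, Serpina3h and Serpina3i, 87.7% to 91.2% of aligned bases were identical. Between these genes and Serpina3c, Serpina3m or Serpina3n the figure was 77.7% to 84.5%. The exception was Serpina3c with Serpina3m, which were 90.0% identical although their log2 fold changes were -0.30 and 1.35. Of all 36-base k-mers of a member's transcripts, those also found in transcripts of another gene were 24.2% in Serpina3g, 23.6% in Serpina3i, 22.1% in Serpina3f, 30.0% in Serpina3m (21.6% with Serpina3k), 16.9% in Serpina3n and 12.5% in Serpina3c. For k-mers of 75 bases the shares were 0.3% to 11.0%. Read length and the rule for reads that map to several places were not given in the sources used here, so how many reads were lost or divided was not measured.

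**Figure D5:**
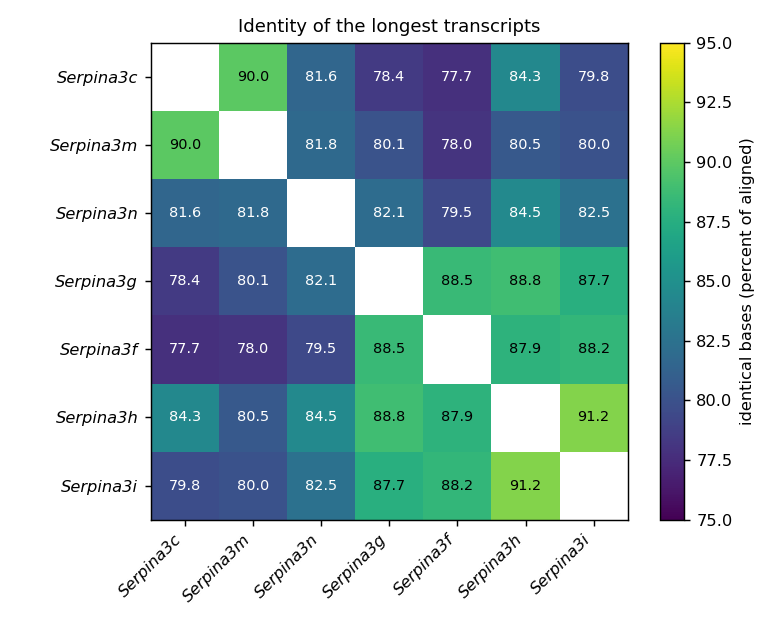
Identical bases between the longest transcripts of each pair of members, in percent of the aligned bases (colour scale from 75 to 95). The block of Serpina3g, Serpina3f, Serpina3h and Serpina3i at the lower right holds values of 87.7 to 91.2, and Serpina3c with Serpina3m at the upper left is at 90.0.

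The promoters of the members were compared because several of these genes differed together. RefSeq promoters of build GRCm38.p6 (250 bases before to 50 after the start) were matched by symbol for 5 of the 7 members, Serpina3c, Serpina3f, Serpina3g, Serpina3i and Serpina3n. The windows below are the homologous upstream bases, 5′ to 3′ on the strand of the gene. Capitals mark the letters TTCNNNGAA, a palindrome bound by STAT factors, and, on either strand, GGG and CC with any 5 bases between them, a loose form of the NF-κB site; adjoining capitals are overlapping matches.
Serpina3f (chr12:104214343-104214451, plus strand): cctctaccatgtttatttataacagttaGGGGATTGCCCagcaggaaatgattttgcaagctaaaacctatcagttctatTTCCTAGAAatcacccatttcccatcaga
Serpina3g (chr12:104236034-104236142, plus strand): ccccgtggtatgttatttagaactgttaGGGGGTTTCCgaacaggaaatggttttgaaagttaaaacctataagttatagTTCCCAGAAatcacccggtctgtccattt
Serpina3i (chr12:104262940-104263048, plus strand): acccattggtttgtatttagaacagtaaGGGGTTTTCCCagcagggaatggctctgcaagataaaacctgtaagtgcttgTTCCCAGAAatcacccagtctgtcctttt
Serpina3n (chr12:104406505-104406613, plus strand): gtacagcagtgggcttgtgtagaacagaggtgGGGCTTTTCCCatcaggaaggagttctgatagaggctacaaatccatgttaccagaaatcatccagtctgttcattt
Serpina3c (chr12:104153964-104154072, minus strand): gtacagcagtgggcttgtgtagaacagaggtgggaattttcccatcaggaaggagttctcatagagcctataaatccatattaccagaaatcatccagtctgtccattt
The STAT-type palindrome was found in the promoters of Serpina3f, Serpina3g and Serpina3i, at positions -121, -33 and -102 from the annotated start. A further RefSeq entry of Serpina3f, with another start, holds it at -210 and does not hold the NF-κB-type letters. It was not found in the promoters of Serpina3c and Serpina3n, nor in those of Serpina3a, Serpina3b and Serpina3j, which had at most 1 count. Of 32544 distinct mouse promoters of the same 300 bases, 8.3% hold it. The NF-κB-type letters were in the printed windows of Serpina3f, Serpina3g, Serpina3i and Serpina3n, but 51.0% of all promoters hold them. The promoters of Serpina3b and Serpina3j, with at most 1 count, also hold them, first at positions 35 and 36 from the start. That of Serpina3a does not. The window of Serpina3c lacks these exact letters, but at the place of the Serpina3n match it reads gggaattttccc, which differs in spacing. Other forms of the NF-κB site were not searched. The windows of Serpina3c and Serpina3n were 93.6% identical. Both promoters hold GNACA and TGTNC with any 3 bases between them, a palindrome of the type bound by the glucocorticoid receptor, at positions -75 and -78 from the start, which 0.5% of all promoters hold and those of Serpina3f, Serpina3g and Serpina3i do not. A search for TTGCNNAA (either strand), a C/EBP-type site, matched Serpina3f among these 5 members and 10.8% of all promoters. GAAA repeated after any 2 bases (either strand), an interferon-response type, matched none of the 5 and 3.4% of all. The motifs were chosen with the expression values known, and a match shows letters, not binding.

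For each member that averaged 10 CPM or more, the genes outside the cluster of most similar profile were taken by the smallest root mean square distance between log2 CPM profiles, centred over the 6 libraries, among 8611 genes of that level, clone-type names (Gm and Rik numbers) left out. For Serpina3i they were Ccl2, a chemokine for monocytes (distance 0.29), Il33 (0.36) and Ndufa4l2 (0.37). For Serpina3f they were Npy1r, a receptor of neuropeptide Y (0.26), Chl1, a neural adhesion molecule (0.29), and Ccl2 (0.30). For Serpina3g they were Chl1 (0.15), Zc3h12a, an RNase that degrades inflammatory transcripts (0.19), and Cyp7b1, an oxysterol hydroxylase (0.21). Among the members themselves, Serpina3f lay at 0.16 from Serpina3i and 0.24 from Serpina3g, both nearer than any of its neighbours outside the cluster. The profile of Serpina3m was nearest to Pid1 (0.12), the collagen prolyl hydroxylase subunit P4ha2 (0.12) and the mitophagy receptor Bnip3 (0.13). That of Serpina3n was nearest to Ninl (0.05), the metalloreductase Steap4 (0.05) and the NAD kinase Nadk (0.05), and that of Serpina3c to genes that include Ippk (0.03) and Ubxn2b (0.04). All distances are over the same 6 libraries, whose main difference is irisin against PBS. Il33 RNA averaged 104 CPM in irisin and 8.40 CPM in PBS, although all libraries carry the label Il33-EGFP-.

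Around the cluster, within 500 kb on each side, the table holds 39 other genes, of which 13 had no count. The 1 that passed the filter on low counts was Dicer1, the RNase that makes microRNAs, at 17.0 ± 3.22 CPM in irisin and 17.5 ± 2.18 CPM in PBS (SD, n = 3 each; log2 fold change -0.04 ± 0.18, edgeR adjusted p = 0.953). The α1-antitrypsin genes Serpina1a, Serpina1b, Serpina1c, Serpina1d and Serpina1e, on the other side of Serpina5, had between 0 and 3 counts each over all libraries.

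Serpins outside the cluster went both ways. Of 62 other symbols starting with Serpin, which include the 7 other Serpina3 symbols, 13 were tested, none of them named Serpina3. Of the 13, 4 rose, 1 fell and 8 did not pass (median log2 fold change 0.09, beside -0.01 over all genes tested). Among all genes tested, 4.20% were called higher and 3.22% lower. Serpinb2, an inhibitor of plasminogen activators, averaged 137 ± 14.0 CPM in irisin and 8.56 ± 1.84 CPM in PBS (SD, n = 3 each; log2 fold change 4.01 ± 0.15, edgeR adjusted p = 5.58e-09). Serping1, the C1 inhibitor of the complement cascade, averaged 4368 ± 357 CPM in irisin and 2257 ± 277 CPM in PBS (log2 fold change 0.95 ± 0.10, edgeR adjusted p = 5.66e-05). Serpinb8 (log2 fold change 1.06 ± 0.19, edgeR adjusted p = 0.00315) and Serpinb9, a granzyme B inhibitor (log2 fold change 0.57 ± 0.12, edgeR adjusted p = 0.00966), also rose. The call of Serpinb9 was lost without PBS replicate 1 (adjusted p = 0.0511, against 0.000591 to 1.00 over all alternatives). Serpine2, protease nexin, which inhibits thrombin and plasminogen activators, fell to 214 ± 15.8 CPM in irisin, against 446 ± 69.6 CPM in PBS (log2 fold change -1.06 ± 0.11, edgeR adjusted p = 3.76e-05). Serpinf1 and Serpinh1 were among those that did not pass.

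Proteases of leukocytes and mast cells, among which are known targets of Serpina3 proteins, were low. Gzmb, Gzma and Ctsg had no count in any library, Cma1, a chymase, had 1 count in irisin and 0 in PBS, and Elane, neutrophil elastase, had 2 in irisin and 9 in PBS. Prtn3, a neutrophil protease, had 41 counts in irisin and 102 in PBS and did not pass (log2 fold change -1.24 ± 0.38, edgeR adjusted p = 0.0691). Leukocyte markers summed to 63.0 to 88.3 CPM in irisin and 67.0 to 83.0 CPM in PBS, mostly Csf1r, and the leukocyte marker Ptprc had 3 counts in irisin and 6 in PBS. Of 21 serine proteases listed, 6 were tested, and 2 fell, beside 3.22% of all genes tested (median log2 fold change -0.60, beside -0.01 over all). Plau, the urokinase plasminogen activator, fell to 49.2 ± 5.46 CPM in irisin, against 127 ± 34.3 CPM in PBS (log2 fold change -1.37 ± 0.19, edgeR adjusted p = 0.00138). Htra3, a secreted serine protease, fell to 140.0 ± 2.20 CPM in irisin, against 254 ± 25.5 CPM in PBS (log2 fold change -0.86 ± 0.09, edgeR adjusted p = 4.42e-05). Cysteine cathepsins, the targets of Serpina3g, were abundant, with Ctsb at 2492 CPM in irisin and 2913 CPM in PBS and Ctsl at 1104 CPM in irisin and 1082 CPM in PBS. Of 8 tested (median log2 fold change -0.14), beside 7.42% of all genes called in either direction, Ctsh rose (log2 fold change 0.45 ± 0.10, edgeR adjusted p = 0.0103), Ctsc fell (log2 fold change -0.79 ± 0.11, edgeR adjusted p = 0.000629) and 6 did not pass, Ctsb and Ctsl among them. The call of Ctsh was lost without PBS replicate 1 or 2 (adjusted p = 0.0766 and 0.0614, against 3.70e-10 to 1.00 over all alternatives).

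Genes of the pathways known to induce the family were counted next, and are read beside the 4.20% of all genes tested that were called higher, the 3.22% called lower and the median log2 fold change of -0.01 over all. Of 14 genes of gp130 and STAT3 signalling tested, 4 rose and 10 did not pass (median log2 fold change 0.25). Il6 averaged 53.3 ± 6.59 CPM in irisin and 13.5 ± 2.85 CPM in PBS (edgeR adjusted p = 4.72e-06). Socs3, a STAT3 target that restrains the pathway, averaged 186 ± 7.39 CPM in irisin and 97.4 ± 8.23 CPM in PBS (edgeR adjusted p = 2.23e-05). The kinase Jak2 (log2 fold change 0.84 ± 0.12, edgeR adjusted p = 0.00041) and Osmr, the oncostatin M receptor (log2 fold change 0.48 ± 0.09, edgeR adjusted p = 0.00421), were the other rises. Stat3 itself averaged 572 CPM in irisin and 478 CPM in PBS and did not pass (edgeR adjusted p = 0.0862). Without PBS replicate 3 the rises numbered 7, beside 705 of all 12590 genes tested called higher there.

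Of 19 NF-κB signalling genes tested, 10 rose and 9 did not pass (median log2 fold change 0.54, beside -0.01 over all genes tested, of which 4.20% were called higher). Those of lowest p were the inhibitor Nfkbia (2.57-fold), Nfkbiz (2.90-fold), the bacterial lipoprotein receptor Tlr2 (3.08-fold) and the feedback enzyme Tnfaip3 (4.09-fold). Of 12 interferon signalling genes tested, 5 rose and 7 did not pass, again beside 4.20% of all genes called higher (median log2 fold change 0.56). They were the interferon receptor chains Ifnar2 (2.41-fold), Ifnar1 (1.63-fold) and Ifngr2 (1.43-fold), the GTPase Gbp2 (1.87-fold) and the transcription factor Irf1 (1.51-fold). The call of Irf1 (edgeR adjusted p = 0.0398) was lost without irisin replicate 1 or 3, without PBS replicate 1, 2 or 3 and with scaling by total counts alone (adjusted p = 0.0555 to 0.209, against 0.00146 to 1.00 over all alternatives). Of 10 glucocorticoid receptor pathway genes tested, Tsc22d3, a glucocorticoid-induced leucine zipper protein, fell to 27.8 ± 2.18 CPM in irisin, against 43.6 ± 1.07 CPM in PBS (edgeR adjusted p = 0.00313), and 9 did not pass (median log2 fold change -0.11). That is 1 of 10, beside 7.42% of all genes tested called in either direction.

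Markers of mature adipocytes went the other way from the members that were higher. Of 6 adipocyte markers, Lep had no count and the 5 tested fell, beside 3.22% of all genes tested called lower. That share stands beside the other markers below as well. The adipocyte sum was 40.5 to 50.4 CPM in irisin and 151 to 244 CPM in PBS (exact two-sided permutation test, p = 0.1, the smallest that 3 against 3 allows). Sums of mesothelial markers were 38.6 to 49.96 CPM in irisin and 35.0 to 41.5 CPM in PBS, of endothelial markers 18.4 to 26.2 CPM in irisin and 31.1 to 37.9 CPM in PBS, and of pericyte markers 8.70 to 9.76 CPM in irisin and 16.8 to 22.3 CPM in PBS. The endothelial sum was mostly Tek (403 counts in irisin, 633 in PBS), which fell, and the mesothelial sum mostly Wt1 (769 counts in irisin, 704 in PBS), which did not pass. The other endothelial and mesothelial markers, Pecam1, Cdh5, Msln and Upk3b among them, had 0 to 12 counts over a group. Of the 4 pericyte markers Cspg4 and Abcc9 fell, and Rgs5 had 16 counts in each group. The part of these shifts in the Serpina3 values was not tested.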

How the data were processed

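Polyadenylated RNA of 6 libraries of cultured cells was profiled by ultra-low-input RNA-seq, per the labels' protocols. Per the submitters' processing notes, the tools were STAR 2.7.3a and featureCounts and the build mm10; annotation, strand setting, multi-mapping rule and read length were not given in the sources used here. Deposited values are whole-number counts per gene symbol with no normalization by the authors. From these, edgeR 4.0.16 (R 4.3.3) computed TMM factors, filtered low counts (filterByExpr, minimum 10, leaving 12296 genes) and compared irisin with PBS by the robust quasi-likelihood test with Benjamini-Hochberg adjustment and a threshold of 0.05. CPM are counts over the TMM-scaled sum of tested genes, so 1 CPM stood on 5.17 to 6.89 counts. The standard error is the log2 fold change over the square root of F. Exon lengths came from GENCODE M21, and Biopython 1.88 aligned sequences.

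The members, lists, motifs and alternatives were chosen with earlier results of these data known. The naming rule took all members, up to 4 called genes of lowest p in each direction of a list (all when 5 or fewer were called) and the 3 nearest profiles; some items are not reported here. Genes named outside it, such as Stat3, Ctsb, single markers and the low proteases, were chosen after their values were seen. Lists are described by counts and medians. Groups came from the sample titles, and no library repeated another (chi-square per degree of freedom 2.71 to 14.5 within groups). On simulated data for irisin against PBS (12105 genes, 200 changed), the test recovered 48% of 1.5-fold, 92% of 2-fold, 98% of 4-fold and 98% of 8-fold changes, and 18 of 186 calls were unchanged genes. Alternatives were other scalings, DESeq2 1.42.0, limma-voom (limma 3.58.1), other filters and thresholds, a replicate block and libraries left out.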

Additional observations from a re-analysis of the deposited data

How the results depend on the processing

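Serpina3c, Serpina3f, Serpina3g, Serpina3i and Serpina3m kept their direction and their side of the threshold under all 17 alternatives, as did the summed cluster under its 15 (log2 fold change 0.95 to 1.07; 0.97 to 1.07 with 1 library left out). Serpina3n did so under 16, and was not called when tested against a 1.5-fold change. Among the 17, adjusted p 0.10 reuses the main fit, so it could not change the direction or call of a called gene. The test against a 1.5-fold change keeps the fitted log2 fold change, so it could not change a direction. Members called numbered 4 to 6, being 6 with no low-count filter, where Serpina3h was tested, and 5 with any 1 library left out. Tested against a 1.5-fold change, calls numbered 273 over all genes (912 in the report's fit), 3 for other serpins, 1 for serine proteases, 0 for cysteine cathepsins, 2 for gp130 and STAT3 signalling, 1 for interferon signalling and 0 for the glucocorticoid pathway. With total counts alone there were 4 serine proteases, 4 cathepsins and 2 glucocorticoid genes, and of all genes 422 were called higher and 602 lower, against 516 and 396 with TMM. With no low-count filter there were 4 of 12 serine proteases and 2 of 11 glucocorticoid genes, beside 1153 of all 31436 genes tested. At adjusted p 0.10 there were 4 serine proteases and 2 glucocorticoid genes, beside 1260 of all 12296. With limma-voom there were 4 cathepsins and 7 gp130 genes, beside 1327 of all 12296. Without irisin replicate 1 and PBS replicate 3 together, calls numbered 1680 over all genes, 4 serine proteases, 5 cathepsins, 7 gp130 genes and 2 glucocorticoid genes. With 1 library left out, calls ranged from 589 to 1290 over all genes, 4 to 5 for other serpins, 2 to 3 for serine proteases, 1 to 4 for cathepsins, 4 to 7 for gp130, 9 to 10 for NF-κB, 4 to 6 for interferon and 1 to 1 for glucocorticoid genes; of all genes, 605 were called without PBS replicate 1, 589 without irisin replicate 2 and 596 without irisin replicate 3. Cathepsin calls numbered 1 without PBS replicate 1 or 2, and 4 without PBS replicate 3, where 1290 of all genes were called. The cause of these shifts was not tested. The sample titles give replicate numbers but state no pairing. Deviations of same-numbered irisin and PBS libraries from their group means correlated at -0.25, 0.17 and -0.18, and not every library matched its own number best. Such deviations add up to 0 within a group, so these correlations cannot decide if libraries were paired. With the replicate block 691 genes and the same 5 of 6 members were called, and Irf1 lost its call (adjusted p = 0.0969). Depth limits Serpina3h, at 8 to 10 counts per irisin library, and the genes of the locus with single counts.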

Other observations

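The serpin genes Serpina12, Serpina5 and Serpina9 next to the cluster had a few counts and were below the filter on low counts, so they entered no test. Serpina12, which encodes the adipokine vaspin, had 11 counts over the irisin libraries and 3 over the PBS libraries. Serpina5, the protein C inhibitor, had 0 counts in irisin and 7 in PBS. Serpina9 had 3 counts in irisin and 9 in PBS.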
